A study of Mus musculus with 2 samples.

Results

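The genes described here are the secreted ligands of the transforming growth factor beta family: the subunits of activins and inhibins, the bone morphogenetic proteins (BMPs), the growth and differentiation factors (GDFs), the TGF-betas, nodal and lefty, anti-Muellerian hormone and myostatin. Follistatin and Fstl3, which bind activins, are included with them. They were chosen by gene name, with earlier results of these data known. Bmp1 was left out because it encodes a protease, and 35 of the 31784 gene rows of the table belong to the set. The table compares whole pituitary RNA of Brdt-/- mice, which lack an intact Brdt gene, with that of wild-type mice, all 8 weeks old and of C57BL/6 background. The Brdt allele, tm1a, is present in every cell and carries a gene-trap cassette with a lacZ reporter and a neomycin resistance gene in the fourth intron. Each of 2 two-colour Agilent arrays set 1 wild-type pool against 1 knockout pool, each made from 3 mice. The wild-type pools are labelled male, and the labels give no sex for the knockout pools. On array 1 the knockout RNA carried Cy5 and on array 2 it carried Cy3. Pools are the replicates here, so the spread between single mice was not measured.

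Ligands of this family are made as precursors, cleaved, and secreted as dimers that bring together type I and type II receptor kinases. Receptors for activins, nodal, GDF8, GDF11 and TGF-betas signal through one set of SMAD proteins, and receptors for BMPs through another. In the pituitary the family is best known from gonadotrophs, the cells that make luteinising and follicle-stimulating hormone: activin, made within the gland, raises transcription of Fshb, follistatin binds activin, and inhibin from the gonad competes with it.

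The deposited values are folds between the channels of an array, with no intensities, so which ligands a pituitary expresses at all cannot be read from them, and a ratio near 0 may come from a transcript that was not detected. Ratios are given as log2 of knockout over wild type, array 1 before array 2. That direction is likely and not settled: no label states which channel was divided by which. It assumes that both columns are Cy5 over Cy3, so the column of array 2 was turned in sign. Over the 31784 gene rows the deposited columns correlated with Pearson's r = 0.26 and, after turning, with r = -0.26, a description across genes, which are not independent replicates. The basis for one dye order is that 10 of 10 spike-in control rows had the same sign in both columns. If both columns were Cy3 over Cy5, all directions below would be inverted. Should the columns instead already be ordered by genotype, array 2 would need no turning, and the values given as deposited would apply. Gdf10 would then have opposite signs on the arrays, and Fst the same sign on both. In that setting 1008 gene rows passed 1.5-fold with the same sign on both arrays, against 258 after turning. Brdt itself was at -0.30 and -0.43 (limma's adjusted p = 0.999995); where its probe lies with respect to the cassette is unknown. Fewer cells of a type and less RNA per cell cannot be told apart in whole tissue.

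Among the 35 genes, Gdf10 alone lay beyond 1.5-fold with the same sign on each array, once array 2 was turned. The median ratio of the 35 was -0.04 on array 1 and 0.08 on array 2, beside -0.03 and 0.03 for all gene rows. Above 0 on both arrays were 10 genes (28.6%, beside 21.6% of all gene rows), below 0 on both were 6 (17.1%, beside 19.5%), and 19 had opposite signs on the 2 arrays (54.3%, beside 58.9%). With array 2 as deposited, 5 were positive in both columns (14.3%, beside 23.3% of all gene rows), 14 were negative in both (40%, beside 35.4%) and 16 had opposite signs (45.7%). Of the 35, 1 gene, Gdf10, exceeded 1.5-fold on each array on the higher side, where 0.359% of all gene rows lay. On the lower side there was no member, where 0.453% of all gene rows lay. On array 1 alone 4 members passed 1.5-fold (Gdf10, Fst, Bmp10 and Inhbb; 11.4%, beside 13.8% of all gene rows). On array 2 alone 4 passed it (Gdf10, Bmp5, Fst and Bmp10; 11.4%, beside 9.19%). No member passed the adjusted threshold of 0.05 in limma's moderated test over all gene rows, where the share of all rows called was 0%. At an unadjusted p under 0.05 the same test had 2 members, Gdf10 and Lefty1 (5.71%, beside 2.21% of all gene rows). The ordinary one-sample statistic with the same adjustment called 2 genes, neither of them a member. These were Ccdc107 (-0.0075 and -0.0075) and Kri1 (-0.091 and -0.091), whose ratios were near 0 and the same on both arrays to 4 decimals. With 2 arrays a sign-flip permutation test cannot give a two-sided p below 0.5.

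**Figure D1:**
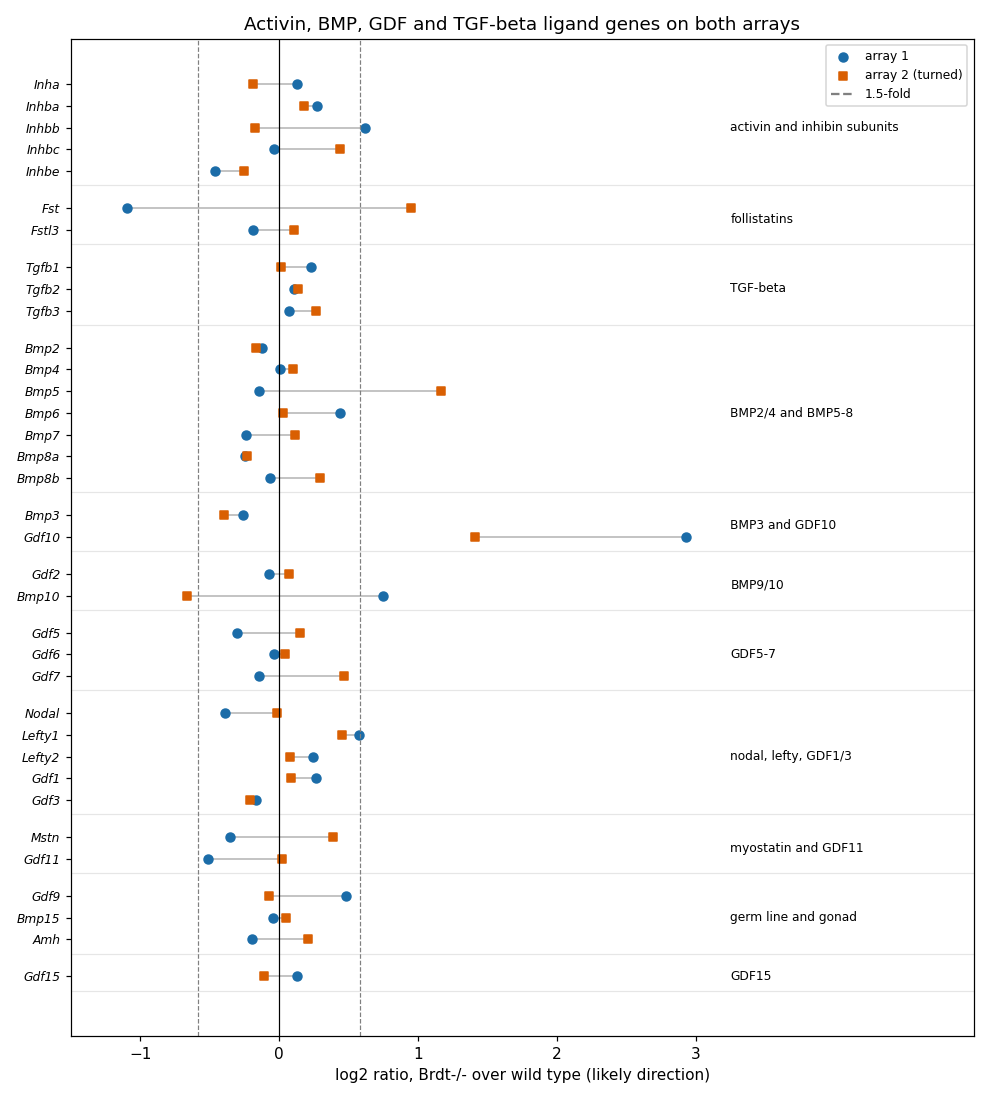
Log2 ratio of knockout over wild type (x axis, likely direction) for each of the 35 ligand and follistatin genes, grouped by kind. Circles are array 1, squares are array 2 after its sign was turned, the grey line joins the 2 arrays, and dashed lines mark 1.5-fold. Gdf10 lies at 2.93 and 1.41, while Fst, at -1.09 and 0.95, spans 0.

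Gdf10 encodes growth and differentiation factor 10, also called BMP3B, the closest relative of BMP3. The deposited folds for it were 7.62 on array 1 and -2.66 on array 2, which give log2 ratios of 2.93 and 1.41 once array 2 is turned. Both are above 0, and array 1 is the higher. Its mean was 2.17 ± 1.07 (SD, n = 2; 4.50-fold higher), the rank of that mean among 31784 gene rows was 11 from the top, and ranked by the smaller of the 2 ratios it was in place 2; both ranks hold for the turned column. The adjusted p of limma was 0.999995, and the unadjusted p was 0.0127. Leaving array 2 as deposited gives opposite signs in the 2 columns and a mean of 0.76 ± 3.07 (SD, n = 2), at rank 960 from the top. Bmp3 did not share the pattern of its relative: it was at -0.26 and -0.40, below 0 on both arrays, with a mean of -0.33 ± 0.09 (SD, n = 2).

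Gdf2, which encodes BMP9, a circulating factor made mainly in the liver that acts on endothelium, is the next protein-coding gene after Gdf10 in the RefSeq annotation. Its ratios were -0.08 and 0.07, so the neighbour of Gdf10 lay near 0 on both arrays. The promoter windows of both genes are shown because these adjacent members differ in their ratios. Each runs from 250 bases before to 50 bases after the gene start in RefSeq on build GRCm38.p6, on the plus strand, at chr14:33923337-33923636 for Gdf10 and chr14:33940789-33941088 for Gdf2. Capitals mark matches on either strand to 4 short motifs: the TATA box (TATAAA), the GC box (GGGCGG), the half-site of the cyclic AMP response element (TGACG) and the SMAD box (CAGAC).
Gdf10: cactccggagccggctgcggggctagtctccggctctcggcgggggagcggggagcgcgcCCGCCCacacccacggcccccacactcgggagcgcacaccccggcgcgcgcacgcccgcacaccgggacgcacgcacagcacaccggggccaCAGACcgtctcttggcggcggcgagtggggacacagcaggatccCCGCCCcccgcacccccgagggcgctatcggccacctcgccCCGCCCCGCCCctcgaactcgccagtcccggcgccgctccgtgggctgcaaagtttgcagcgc
Gdf2: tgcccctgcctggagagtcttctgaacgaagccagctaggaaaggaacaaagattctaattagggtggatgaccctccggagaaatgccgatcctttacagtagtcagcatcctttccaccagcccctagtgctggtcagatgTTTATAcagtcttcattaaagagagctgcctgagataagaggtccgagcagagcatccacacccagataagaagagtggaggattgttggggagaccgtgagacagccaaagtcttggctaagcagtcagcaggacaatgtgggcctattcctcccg
The Gdf10 window is 77.3% G and C and holds 4 GC boxes, of which the last 2 overlap by a base, and 1 SMAD box. The Gdf2 window is 51.0% G and C and holds 1 TATA box, with no match to the other motifs. Over 32851 promoter windows of the same length, a GC box was found in 35.66%, a SMAD box in 49.59%, a TATA box in 13.62% and the half-site in 20.81%. Windows were at hand for 23 of the 35 genes, 25 in all, of which 12 held a GC box, 15 a SMAD box, 7 a TATA box and 4 the half-site. These are matches of letters and not measured binding sites.

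Markers of other cell types also had ratios away from 0 on these arrays. None of them passed limma's adjusted threshold (adjusted p = 0.999995 for each), and their part in the Gdf10 ratio was not tested. For the counts that follow, 21.6% of all gene rows were above 0 on both arrays and 19.5% below, and the lists are small. Of 8 neutrophil markers 6 were above 0 on both arrays, with ratios from -0.09 to 5.54 on array 1 and from -0.45 to 1.32 on array 2. Of 9 osteoblast and osteoclast markers 6 were above 0 on both, from 0.13 to 2.32 on array 1 and from -0.96 to 1.14 on array 2. The 9 markers of fibroblasts, pericytes and meninges included 3 that were above 0 on both arrays, and ran from -0.22 to 0.54 and from -0.26 to 1.09. Of 5 cartilage markers 2 were above 0 on both, with ranges of -0.14 to 0.75 and -0.15 to 0.96. For 6 platelet markers the count was 4, with ranges of -0.18 to 2.86 and -1.63 to 1.51. Of 6 erythroid markers 3 were above 0 on both, with ranges of -0.10 to 0.99 and 0.06 to 1.56. The list medians were 3.56 and 0.30 for neutrophils, 0.03 and 1.16 for erythroid cells, and 0.76 and 0.07 for osteoblasts and osteoclasts, so the lists differed in which array held the higher median. The neutrophil and cartilage lists each held 1 gene below 0 on both arrays. These were Elane, at -0.09 and -0.15, and Chad, at -0.03 and -0.05. Further lists held such genes too. Of 6 skeletal muscle markers 2 were above 0 on both and 1, Ckm, was below, at -0.95 and -1.43. Of 6 markers of endocrine cells other than gonadotrophs 1 was above and 1, Pomc, was below, at -0.63 and -0.96. Of 5 germ cell markers 1 was above and 2 were below. The 5 endothelial markers ran from -0.17 to 0.18 and from -0.22 to 0.24. Lists of cells of the pituitary itself also held genes above 0 on both arrays. Pituicyte and neural markers had 4 of 6 above and 1 below, with medians of 0.31 and 0.16. Stem and folliculostellate markers had 3 of 5 above and 0 below, with medians of 0.44 and 0.07. For gonadotroph markers the counts were 2 and 1 of 5, and for the 4 macrophage markers measured they were 1 and 1.

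**Figure D2:**
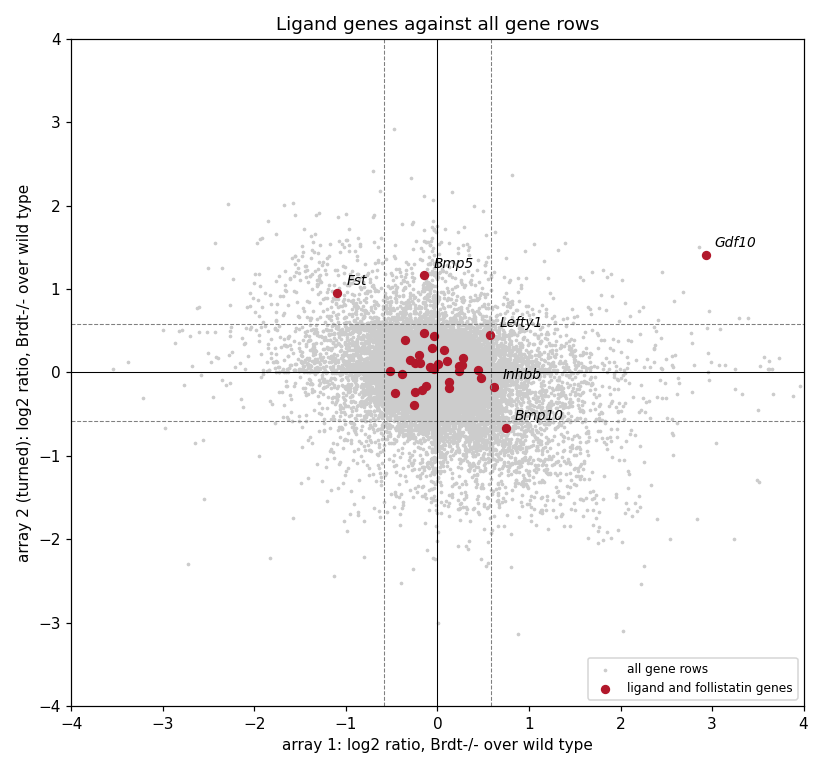
Log2 ratio on array 1 (x axis) against array 2 after turning its sign (y axis), with every gene row in grey and the 35 ligand and follistatin genes in red. Dashed lines mark 1.5-fold, and 11 gene rows lie outside the axes. Gdf10 is the only red point past 1.5-fold in the upper right field, and Fst and Bmp10 lie in the fields where the 2 arrays have opposite signs.

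The activin and inhibin subunits did not move one way. Inhba, the subunit of activin A, was at 0.28 and 0.18, above 0 on both arrays (mean 0.23 ± 0.07, SD, n = 2). Inhbb, the subunit of activin B, which gonadotrophs make, was at 0.61 and -0.17, so it passed 1.5-fold on array 1 and had the opposite sign on array 2. Inha, the subunit shared by the inhibins, was at 0.13 and -0.19. Inhbc and Inhbe, subunits expressed chiefly in liver and adjacent to each other in the annotation, differed: Inhbc was at -0.04 and 0.44, and Inhbe was at -0.46 and -0.25, below 0 on both arrays. Within this group 1 of 5 was above 0 on both, 1 was below, and 3 had opposite signs.

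Follistatin, encoded by Fst, had ratios of opposite sign on the arrays once array 2 was turned. The deposited folds were -2.13 on array 1 and -1.93 on array 2, of nearly equal size and the same sign. Turned to knockout over wild type, they are -1.09 and 0.95, below 0 on one array and above it on the other, and their mean was -0.07 ± 1.45 (SD, n = 2), against -1.02 ± 0.10 (SD, n = 2) with array 2 as deposited. In terms of dye, and if both columns are Cy5 over Cy3, Fst was the lower in Cy5 on both arrays, whichever genotype carried it. Fstl3, the second activin-binding protein, showed the same arrangement on a smaller scale, at -0.19 and 0.11.

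Bmp10 and Mstn had that arrangement too. Opposite signs after turning were common, in 19 of the 35 members (54.3%, beside 58.9% of all gene rows). Bmp10, known as a cardiac ligand, was deposited at 1.68 and 1.58, which gives 0.74 and -0.66 for knockout over wild type. Mstn, the gene of myostatin, an inhibitor of muscle growth, was at -0.35 and 0.39. With the column of array 2 left as deposited, Fst (mean -1.02), Bmp10 (0.70) and Mstn (-0.37) were the 3 members at an unadjusted limma p under 0.05, or 8.57% of the 35, beside 10.2% of all gene rows. Fst and Bmp10 were then the 2 members past 1.5-fold in both columns, on the negative side with 1.15% of all gene rows and on the positive side with 2.03%. No member passed the adjusted threshold in that orientation (adjusted p = 0.465274 by limma for each of the 3 genes).

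All 3 TGF-beta genes, whose products regulate growth and extracellular matrix in many tissues, were above 0 on both arrays, and all 3 were small. Tgfb1 was at 0.23 and 0.01, Tgfb2 at 0.11 and 0.14, and Tgfb3 at 0.07 and 0.27. The means were 0.12 ± 0.15, 0.12 ± 0.02 and 0.17 ± 0.14 (SD, n = 2 each), and limma's adjusted p was 0.999995 for each. Of all gene rows 21.6% were above 0 on both arrays.

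The 5 genes of nodal signalling had the same sign on both arrays in each case, 3 above 0 and 2 below. Among all gene rows 21.6% were above 0 on both arrays and 19.5% below, and 5 genes are few. Lefty1, an extracellular inhibitor of nodal, was at 0.58 and 0.45, just under 1.5-fold on array 1 (1.49-fold) and at 1.37-fold on array 2. Its mean was 0.52 ± 0.09 (SD, n = 2), and the adjusted p of limma was 0.999995 (unadjusted 0.0388). Lefty2, which lies near Lefty1 on chromosome 1 with 1 protein-coding gene between them, was at 0.24 and 0.08. Nodal, a morphogen of the early embryo, was at -0.39 and -0.02. Gdf1 and Gdf3, relatives that act with nodal in embryos, went apart, with Gdf1 at 0.27 and 0.09 and Gdf3 at -0.16 and -0.21. The lefty genes are closely related paralogues, and how far the probes tell them apart is unknown. With array 2 as deposited the mean of Lefty1 was 0.06.

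Among the BMPs with described roles in the pituitary, ratios were small. Bmp4, needed for the pituitary primordium, was at 0.01 and 0.10. Bmp2, expressed in the developing gland, was at -0.12 and -0.17, and Bmp7 at -0.24 and 0.11. Bmp6, studied together with Bmp7 as a regulator of Fshb in gonadotroph cells, was at 0.44 and 0.03, so array 1 carried its difference. Bmp5, a skeletal BMP, was at -0.14 and 1.16, the largest ratio of a BMP gene on array 2, with no counterpart on array 1 (mean 0.51 ± 0.92, SD, n = 2). Bmp8a was at -0.24 and -0.23, which is a close match between the arrays, and its paralogue Bmp8b was at -0.06 and 0.29. Probes for Bmp8a and Bmp8b may share sequence, which was not tested.

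The remaining GDFs and the ligands of the germ line and gonad lay near 0 or had opposite signs. Gdf5, Gdf6 and Gdf7, which act in joints and limbs, were at -0.30 and 0.15, -0.04 and 0.05, and -0.14 and 0.47. Gdf11, a relative of myostatin that patterns the body axis, was at -0.51 and 0.02. Gdf15, a stress-induced factor, was at 0.13 and -0.11. The oocyte factors Gdf9 and Bmp15 were at 0.48 and -0.07 and at -0.04 and 0.05, and Amh, the gene of anti-Muellerian hormone, was at -0.20 and 0.21. None of these 8 genes had the same sign on both arrays.

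Genes that receive, modulate or answer these ligands were read from lists. Of 75 genes in 8 lists, 20 were above 0 on both arrays, 16 were below 0 on both, and 39 had opposite signs. The shares of all gene rows were 21.6%, 19.5% and 58.9%, in that order. None passed 1.5-fold in one direction on both arrays, where 0.359% of all gene rows lay on the higher and 0.453% on the lower side, and none passed limma's adjusted threshold. At an unadjusted p under 0.05 there was 1, Nog, where 2.21% of all gene rows lay, so these counts say little about the 75 genes. The ordinary statistic with adjustment called none of them. Nog, the gene of noggin, which binds and blocks BMPs, was at -0.70 and -0.55 (mean -0.63 ± 0.11, SD, n = 2). After each column was centred on its median Nog was at -0.67 and -0.59 and so passed 1.5-fold on both arrays.

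Genes of type I and type II receptors lay between -0.46 and 0.56 on array 1 and between -0.77 and 0.67 on array 2. Acvr1c, the type I receptor ALK7 used by nodal and activin B among others, was at -0.45 on each array. Bmpr2, the BMP type II receptor, was at -0.46 and -0.17, and Acvr1b, the main type I receptor of activin, at 0.56 and 0.09. Of 7 type I receptors 2 were above 0 on both arrays and 1 was below, and of 5 type II receptors 2 were below 0 on both and none was above. Bmpr1b, a BMP type I receptor, had opposite signs, at -0.44 and 0.67. Acvrl1, an endothelial type I receptor that binds BMP9, was at 0.17 and 0.05. Amhr2, the receptor of anti-Muellerian hormone, was at -0.02 and -0.77. Among 9 coreceptors and decoys, Cfc1, a nodal coreceptor, was at 0.75 and 0.08 and Hfe2, a BMP coreceptor, at -0.05 and -0.71, and the other 7 had opposite signs on the arrays. The 8 SMAD genes had medians of 0.18 and -0.04, and Smad9 (0.21 and 0.27) was the 1 that lay above 0 on both arrays.

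Extracellular antagonists other than Nog were spread widely on array 1, where Chrdl2 was at 1.25 and Sostdc1 at 1.11. On array 2 these genes were at -0.81 and -0.06. The 15 antagonists ran from -0.70 to 1.25 on array 1 and from -0.81 to 0.44 on array 2. Chrdl2, a chordin-like BMP antagonist, was the 1 gene of the 8 lists past 1.5-fold in both columns with array 2 as deposited. Wfikkn1 and Wfikkn2, which bind myostatin and GDF11, were at -0.41 and -0.20 and at 0.43 and 0.17. Grem1, another BMP antagonist, was at 0.17 and 0.12. Of 15 antagonists 5 were above 0 on both arrays and 4 below. The 11 genes of latent complexes and precursor cleavage had medians of 0.03 and 0.03, and Ltbp4 and Ltbp3, which tether latent TGF-beta to the matrix, were at 0.20 and 0.10 and at 0.07 and 0.23. Ltbp2 was at 0.03 and 0.29. Tll1, a protease of the Bmp1 type, was at -0.15 and -0.06.

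Genes that BMP or TGF-beta signals induce directly were split. The inhibitor-of-differentiation genes, standard BMP targets, were all above 0 on array 1, with Id1 at 1.16, Id2 at 0.77, Id3 at 0.42 and Id4 at 0.48. On array 2 they were at 0.00, 0.08, 0.13 and 0.15, at or just above 0. Skil and Smurf2, which restrain SMAD signalling, were below 0 on both arrays, at -0.19 and -0.58 and at -0.39 and -0.29. Of 14 targets 5 were above 0 on both arrays, 5 were below, and the medians were 0.01 and 0.00. The activin-responsive genes of gonadotrophs had medians of 0.07 and 0.08. Fshb was at 0.29 and 0.52, Gnrhr, the receptor of gonadotrophin-releasing hormone, at 0.07 and 0.21, Lhb at -0.10 and 0.30, and Foxl2, a factor that works with SMADs at Fshb, at -0.48 and -0.07. Cga, the alpha subunit shared by the glycoprotein hormones, was at 0.91 and -0.25, and Nr5a1, a nuclear receptor of gonadotrophs, at 0.07 and -0.05. Limma's adjusted p was 0.999995 for each of these genes.

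**Figure D3:**
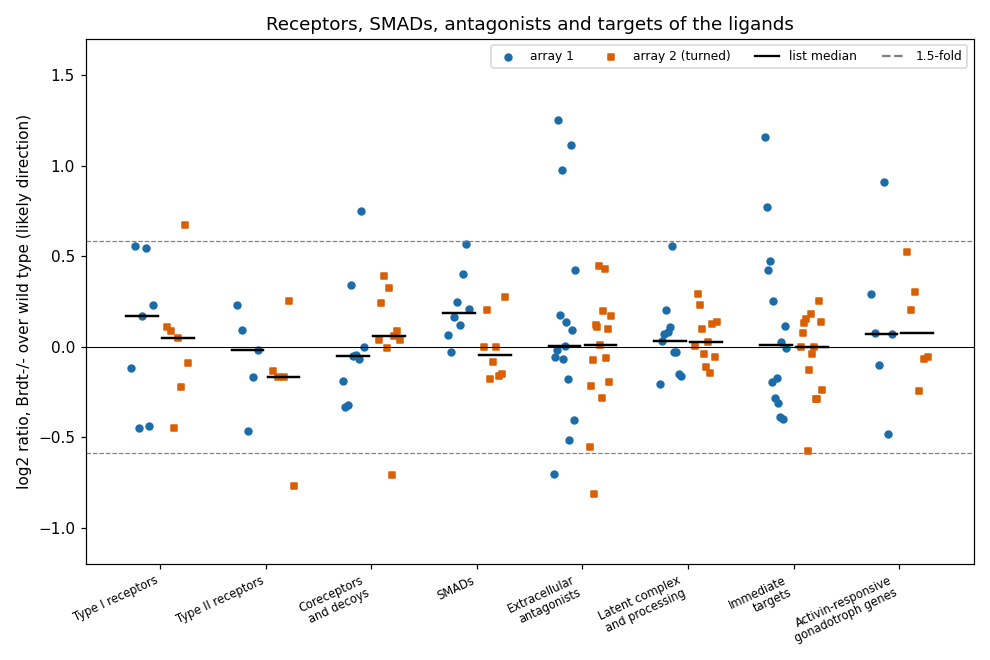
Log2 ratio of knockout over wild type (y axis, likely direction) for the 75 genes in 8 lists of receptors, SMADs, antagonists, processing factors and targets. Circles are array 1, squares are array 2 after its sign was turned, black bars are list medians, and dashed lines mark 1.5-fold. Points of array 1 reach 1.25 while the list medians of both arrays stay between -0.17 and 0.18.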

How the data were processed

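Pituitary RNA was amplified and labelled with Cy3 or Cy5 by an Agilent kit, per the labels' protocols. The authors deposited 1 score per gene name and array, a signed linear fold between the channels; scale was read from the values, of which 0 lay between -1 and 1. For background correction, normalization, centring, the combining of probes and the annotation, no source used here names a method. Of 31840 rows, 56 control rows were left out. Each fold was turned into log2 of its size with its sign, and array 2 was turned. The 31784 gene rows were fitted with limma 3.58.1 in R 4.3.3 (intercept only, 1 residual degree of freedom, Benjamini-Hochberg adjustment), and the procedure was tested on simulated data. An equal dye effect on each array drops out of the mean after turning. Depth does not apply to arrays, and their number, 2, limits the precision. Names come from the deposited rows and RefSeq of GRCm38.p6. Members and lists were chosen with earlier results of these data known. All members are accounted for. Of each list, up to 4 genes with the same sign on both arrays and the largest smaller ratio were to be named; others (among them Chrdl2, Sostdc1, Bmpr1b, Cga, Nr5a1, Lhb, Id1 and Id2) were chosen after their values were seen. Alternatives were orientation, centring, scaling, protein-coding rows alone, single arrays, other fold thresholds and the ordinary statistic.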

Additional observations from a re-analysis of the deposited data

How the results depend on the processing

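Gdf10 was past 1.5-fold on both arrays after centring, scaling, restriction to protein-coding rows and at 2-fold. The number of members past the fold was 2 (Fst and Bmp10, without Gdf10) with array 2 as deposited, which turns the sign by construction, 2 at 1.2-fold, a lower threshold, and 4 with either array by itself. Over all genes, 258 in the reported setting, it was 1008 with array 2 as deposited, 137 for protein-coding rows (fewer genes), 1697 at 1.2-fold, 36 at 2-fold and 2921 to 4393 on single arrays. Of the 75 pathway genes, 0 in the reported setting, 1 passed with array 2 as deposited (Chrdl2), 1 after centring, 1 after scaling (Nog in both) and 4 to 8 on single arrays. The median of the members, 0.02, was -0.04 with array 2 as deposited and 0.02 after centring, after scaling and for protein-coding rows. The mean of the members was 0.10. These moved by less than the spread between the medians of the 2 arrays (SD 0.09). The single arrays gave -0.04 and 0.08. They set that spread themselves, so their distance from 0.02 is no check of stability. The adjusted limma count over all genes, 0, was 0 in each other setting of that test, 2 with the ordinary statistic and 703 at an unadjusted p. The number of members at an unadjusted p, 2 (Gdf10 and Lefty1), was 1 with the ordinary statistic. That 1 was Bmp8a (mean -0.24 ± 0.01, SD, n = 2), and neither Gdf10 nor Lefty1 was called. The ordinary statistic takes its error from the 2 ratios of a gene alone. The sign of the mean was kept by 35 of 35 members after centring, 31 after scaling and 20 with array 2 as deposited. Leave-one-out tests were not run because 1 array leaves no residual degrees of freedom. The design is paired within each array. Without intensities, no filter on dim genes was possible.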

Other observations

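Genes with names close to the family but outside the set were read for comparison, after the data were seen. Fstl5, a follistatin-like gene of neural tissue, had ratios of 3.51 and -1.31, above 0 on array 1 and below it on array 2. Tgfbi, a matrix protein gene induced by TGF-beta, was at 0.53 and 0.42 (mean 0.47 ± 0.07, SD, n = 2), above 0 on both arrays. Fstl1 was at 0.37 and 0.13, Fstl4 at -0.07 and 0.07, and the protease gene Bmp1 at -0.03 and 0.13. Limma's adjusted p was 0.999995 for each of them.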
